A study of Mus musculus with 10 samples.

Results

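The genes described here encode enzymes that add methyl groups to histones and to arginine residues, or that remove them from lysine, and close relatives of these enzymes. They were taken by name, as every listed gene whose symbol begins with Kdm, Kmt, Setd, Prdm or Prmt followed directly by a digit, apart from 1 Prdm gene. The rule gave 50 of the 15507 genes listed: 18 Kdm, 8 Kmt, 8 Setd, 9 Prdm and 7 Prmt genes. All 50 had enough reads to be tested. RNA-Seq was done on germ cells of 5 wild-type (WT) mice and 5 homozygous knock-in (KI) mice aged 45 days, with 1 library per mouse. The KI mice carry, on both alleles, the human gene of GRTH, a testicular RNA helicase, with the mutation R242H. The mouse gene is Ddx25. The germ cells were freed from the testes of both genotypes with collagenase and trypsin, so that each library holds spermatogonia, spermatocytes and spermatids together. The comparison asks which of these genes differ in RNA level between KI and WT germ cells.

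Lysine methyltransferases with a SET domain write methyl marks on histone tails: methylation of lysine 4 of histone H3 (H3K4) goes with active promoters and enhancers, that of H3K36 with transcribed gene bodies, and that of H3K9, H3K27 and H4K20 with silent chromatin. Lysine demethylases of the Kdm family take these marks off, and arginine methyltransferases (Prmt) methylate histones as well as RNA-binding proteins, among them the PIWI proteins of germ cells. In the testis these marks are rewritten as spermatogonia enter meiosis, at silencing of the sex chromosomes, and before histones give way to protamines in elongating spermatids.

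Values are normalized counts, the reads of a gene divided by the DESeq2 size factor of its library. KI and WT were compared with limma on log2(normalized count + 1) over 15389 genes, so that log2 fold changes are on that scale and understate the change of low genes. Genes with a rise or fall of 1.5-fold or more and an adjusted p under 0.05 were taken as up-regulated or down-regulated, together as differentially expressed. Each WT library held 13323024 to 16422347 reads on genes and each KI library 12722086 to 15500582. Mouse Ddx25 had 8231 ± 2209 normalized counts in WT and 101 ± 91.7 in KI (SD, n = 5 each), in the direction of the labels. The KI libraries ran from 1.84 to 194. The fall of Ddx25 was larger in libraries 4 and 5 alone than in libraries 1 to 3 alone. Principal components were taken from the 500 most variable genes. On the first (74.1% of the variance) and the second (9.75%), libraries 4 and 5 lay apart from libraries 1 to 3 within each genotype. The first also parted WT from KI. The labels give no batch, and values within these library sets stand beside the results that they touch. The 12 markers of elongating spermatids all fell in KI, with a summed level of 274825 to 483648 in WT and 41373 to 80008 in KI. Those of round spermatids were lower too, with all 12 below 0, 7 of 12 lower by adjusted p, 2 of them down-regulated, and a summed level of 45734 to 61797 in WT and 25138 to 42200 in KI, without overlap. Markers of spermatocytes (0 of 12), of spermatogonia (0 of 10 tested) and of Sertoli cells (0 of 10) had no calls. By adjusted p alone, 1 spermatocyte marker and 1 spermatogonia marker were lower and 0 Sertoli markers passed. Of the Sertoli markers 9 lay above 0 and 1 below, with summed levels of 4938 to 7997 in WT and 5214 to 8657 in KI, which overlapped. Those of Leydig cells (4 of 7 up-regulated; summed level 10875 to 19504 in WT, 15729 to 27046 in KI), macrophages (5 of 9; 777 to 1031 and 1168 to 1587) and endothelial cells (2 of 6; 265 to 364 and 425 to 810) were higher. Of 5 peritubular myoid markers tested 2 were up-regulated, and of 5 red blood cell markers 1 was up-regulated and 1 down-regulated. No marker of these lists was at 0 in all libraries. In such mixed samples, fewer cells of a type and less RNA per cell cannot be told apart.

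Few of the 50 genes changed between KI and WT germ cells. Kdm6b, an H3K27 demethylase, was the only one up-regulated, and Prdm16, a transcriptional regulator of the Prdm family, the only one down-regulated. They made up 4% of the 50 genes, against 14.4% of all genes tested. Of all genes, 6.13% were up-regulated and 8.22% down-regulated. By adjusted p alone 5 of the 50 passed (10%, against 22.9% of all genes): Kdm6b, Prdm4, Prmt5 and Prmt9 were higher and Prdm16 was lower. The same 5 genes, and no other of the 50, passed by adjusted p with edgeR and with DESeq2 on the recovered reads. With the library number as a block 7 were higher, Kdm5c, Kdm2b and Setd1a in addition, against 14.7% of all genes in that fit. Prdm16 alone was lower there, against 17.4% (32.0% together). No label pairs WT with KI libraries by number. Without the block, 9.65% of all genes were higher and 13.3% lower. At an unadjusted p under 0.05, 7 were higher and 2 lower in KI, when 34.6% of all genes passed in either direction. The genotypes did not overlap in 4 of the 50, namely Kdm6b, Prdm16, Prdm4 and Prmt9, against 17.7% of all genes.

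The log2 fold change ran from −0.74 for Prdm6 to 0.79 for Kdm6b, and 47 of the 50 stayed below a fold change of 1.5, against 82.4% of all genes. For 38 of the 50 the whole 95% interval lay within a fold change of 1.5 either way, against 54.0% of all genes. The fold change was above 0 for 35 genes and below 0 for 15, where 53.6% of all genes were above 0, with a median of 0.11 where the median of all genes was 0.03. This split rests on the scaling. With libraries scaled to equal totals, the median of all genes moved to 0.25 and 48 of the 50 genes lay above 0, against 76.9% of all genes. By adjusted p, 21 were then higher and 0 lower, against 32.6% and 7.92% of all genes (40.5% together). With the scaling of the authors these counts were 4 higher and 1 lower. Set against the median of all genes, that of the 50 was 0.08 higher under both scalings. This difference was 0.03 without KI library 5, 0.05 without WT library 3 and 0.15 in libraries 4 and 5 alone.

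**Figure D1:**
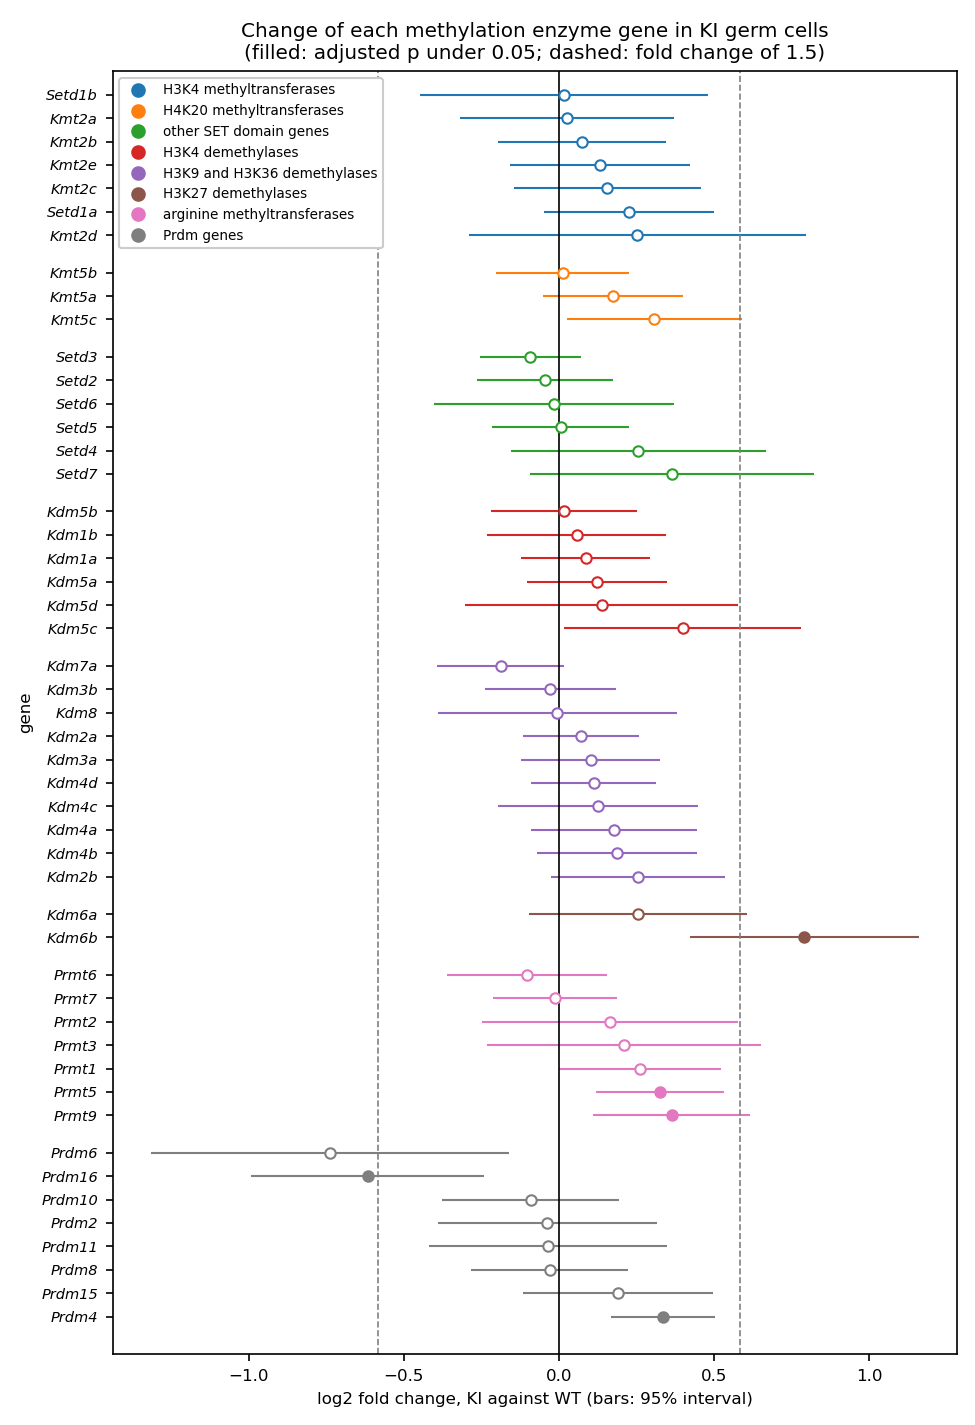
Log2 fold change of 49 of the 50 genes, KI against WT, with its 95% interval from limma, grouped by the role of the enzyme. Filled points are the 5 genes with an adjusted p under 0.05; Kdm6b at 0.79 lies beyond the dashed line for a fold change of 1.5 upwards, and Prdm6 at −0.74 and Prdm16 at −0.62 beyond that downwards.

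For Prmt5 and Prmt9, both among the 5 genes that passed by adjusted p, the 250 bases before the start are shown. The start is that given in the RefSeq promoter table (GRCm38.p6), and the bases run 5′ to 3′ in the direction of the gene. Capitals mark the cAMP response element TGACGTCA, the site of CREB and of the spermatid regulator CREM, or its core TGACG or CGTCA. Both strands were searched, and a full element holds both cores. The window of Prmt5 is at chr14:54517471-54517720 on the minus strand. The window of Prmt9 is at chr8:77549147-77549396 on the plus strand, and its last bases lie within the span that RefSeq gives the gene.
Prmt5: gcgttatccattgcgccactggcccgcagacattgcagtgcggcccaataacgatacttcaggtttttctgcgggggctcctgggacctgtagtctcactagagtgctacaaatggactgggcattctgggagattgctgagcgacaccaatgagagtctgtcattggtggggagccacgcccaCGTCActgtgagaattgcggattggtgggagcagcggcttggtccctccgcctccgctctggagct
Prmt9: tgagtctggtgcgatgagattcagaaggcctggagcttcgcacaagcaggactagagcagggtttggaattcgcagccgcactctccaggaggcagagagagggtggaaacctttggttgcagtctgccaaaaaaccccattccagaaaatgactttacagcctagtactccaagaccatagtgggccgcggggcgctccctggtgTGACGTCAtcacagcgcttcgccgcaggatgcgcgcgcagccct
The full element was present in the window of Prmt9, beginning 44 bases before the start. The window of Prmt5 held 1 core, 66 bases before the start. The windows of Prdm16 and Prdm4, which also passed by adjusted p and are not shown, held 0 cores. Kdm6b, the other gene that passed, had no window. Prmt9 had 14 CpG dinucleotides and Prmt5 had 13. Of the 50 genes 39 had a window, and 1 of them (2.56%) held the full element, against 2.67% of the 12139 genes of the file with a window. A core was found in 25.6% of the 39 and in 25.4% of all, and the GC box GGGCGG, the site of SP1, in 53.8% and 54.6%. The median number of CpG was 15 in both. Where a gene has transcripts that start further upstream, its window can lie within the transcribed span, as did those of Prdm16 and, in part, Prdm4. A match is a description of the window and no evidence of binding.

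Kdm6a (UTX, on the X chromosome) and Kdm6b (JMJD3) encode H3K27 demethylases, which remove the mark that Polycomb proteins lay down. Kdm6b is at chr11:69398518-69416194 on the minus strand of mm10, a protein-coding gene with 6954 exon bases. In WT libraries 1 to 5 its normalized counts were 354.6, 274.0, 303.2, 472.4 and 481.9, and in KI libraries 1 to 5 they were 512.4, 600.5, 550.8, 752.9 and 821.6. Every KI library thus lay above every WT library, and libraries 4 and 5 were the highest within each genotype. The mean was 377 ± 95.7 in WT and 648 ± 133 in KI (SD, n = 5 each). The fold change was 1.73 (log2 0.79, SE 0.17, 95% interval 0.42 to 1.16, limma, adjusted p = 0.00361). It was as large within the library sets, with a log2 fold change of 0.84 in libraries 1 to 3 (adjusted p = 1.98e-05) and 0.72 in libraries 4 and 5 (adjusted p = 0.00864). The adjusted p stayed under 0.05 in all 23 alternative fits. The noncoding gene Kdm6bos overlaps Kdm6b on the other strand and is not analysed here. No source says that reads were counted by strand, and reads of Kdm6bos may be among those of Kdm6b. The summed markers of macrophages, Leydig cells and endothelial cells were also higher in KI, by the values given above, and their part in the rise of Kdm6b was not tested.

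The related gene Kdm6a did not pass. Kdm6a had 117.2, 82.1, 130.4, 71.2 and 92.2 normalized counts in WT and 133.6, 112.1, 112.2, 106.7 and 112.2 in KI, and the genotypes overlapped. Its log2 fold change was 0.26 (SE 0.16, 95% interval −0.10 to 0.61, limma, adjusted p = 0.300). The interval includes no change as well as a fold change of up to 1.52. Whether the changes of Kdm6a and Kdm6b differ was not tested.

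**Figure D2:**
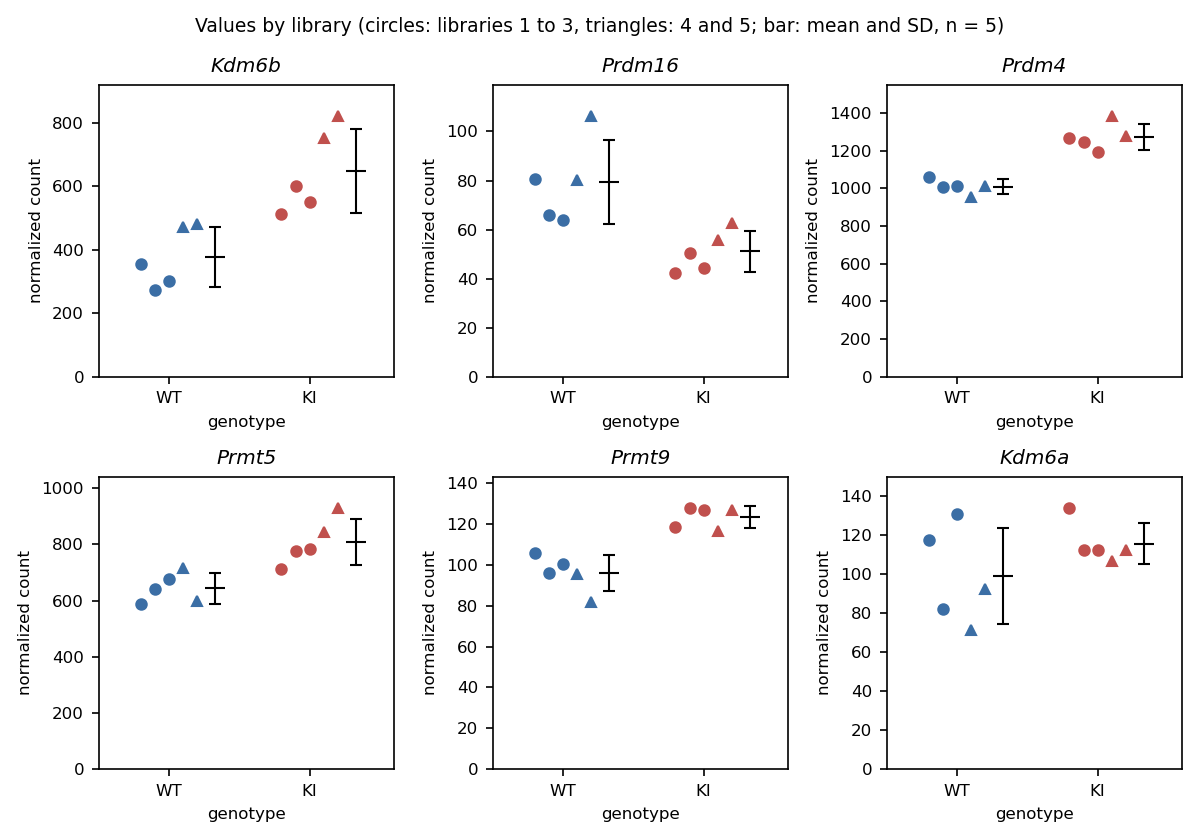
Normalized counts of 6 genes in each WT (blue) and KI (red) library, with circles for libraries 1 to 3, triangles for libraries 4 and 5, and a bar for the mean ± SD (n = 5). The genotypes are apart for Kdm6b, Prdm16, Prdm4 and Prmt9 and overlap for Prmt5 and Kdm6a, and Kdm6b is highest in libraries 4 and 5 of both genotypes.

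The Prdm genes encode zinc finger proteins with a PR domain, a relative of the SET domain that has methyltransferase activity in only some of them. The log2 fold change of 7 of the 9 lay below 0, of which only Prdm6 and Prdm16 stayed below 0 with libraries scaled to equal totals. By adjusted p 1 was lower and 1 higher. Prdm16, known for its roles in brown fat and in blood stem cells, is at chr4:154316125-154636873 on the minus strand. It had 80.5, 65.9, 64.0, 80.2 and 106.4 normalized counts in WT and 42.5, 50.4, 44.3, 55.8 and 62.6 in KI. All KI libraries lay below all WT libraries, with the highest KI library close to the lowest of WT. The mean fell from 79.4 ± 16.9 to 51.1 ± 8.29 (SD, n = 5 each), 1.53-fold (log2 −0.62, SE 0.18, 95% interval −0.99 to −0.24, limma, adjusted p = 0.0193).

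The call of Prdm16 is close to the threshold. Without WT library 5, the highest of WT, the log2 fold change was −0.51 with an adjusted p of 0.0511 (limma), and with library totals it was −0.39 with 0.0940. Leaving out KI library 1 or KI library 3 also brought the fold change under 1.5, with the adjusted p still under 0.05. Within libraries 1 to 3 it was −0.60 (adjusted p = 0.0297) and within libraries 4 and 5 −0.64 (adjusted p = 0.156, limma). Prdm16 is overlapped on the other strand by B230104I21Rik, Gm13133 and Gm13134, which are not analysed here.

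Prdm4, which binds the arginine methyltransferase PRMT5 in neural progenitors, moved the other way. It is at chr10:85891968-85916986. Its normalized counts were 1062, 1006, 1011, 952.9 and 1012 in WT and 1269, 1248, 1193, 1385 and 1275 in KI, with no overlap. The spread was small in both genotypes, 1009 ± 38.6 against 1274 ± 69.8 (SD, n = 5 each). The rise of 1.26-fold (log2 0.34, SE 0.08, limma, adjusted p = 0.00579) stayed below the fold threshold. It lost the adjusted p threshold only in libraries 4 and 5 alone (log2 0.44, limma, adjusted p = 0.0692), among 23 alternatives.

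Prdm6, described as a repressor in smooth muscle, had the largest fall in fold change and did not pass. Its counts were low, 31.4, 23.1, 35.0, 25.1 and 24.5 in WT and 10.6, 27.8, 20.6, 12.5 and 13.8 in KI. KI library 2 reached into the range of WT. The log2 fold change was −0.74 (SE 0.27, limma, adjusted p = 0.0623), and without KI library 2 it was −0.93 with an adjusted p of 0.0220. With a term for the library sets the adjusted p was 0.0386. Of the other Prdm genes none passed, with log2 fold changes between −0.09 and 0.19 for Prdm2, Prdm8, Prdm10, Prdm11 and Prdm15. In libraries 1 to 3 alone Prdm2 was lower (log2 −0.24, limma, adjusted p = 0.0475). In libraries 4 and 5 alone it was at 0.26 (limma, adjusted p = 0.281).

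Of the 7 arginine methyltransferases 2, Prmt5 and Prmt9, were higher by adjusted p and 0 lower, and neither reached the fold threshold. Prmt5 makes symmetric dimethylarginine on histones, spliceosome proteins and PIWI proteins. It is at chr14:54507182-54517470 and had 586.8, 640.5, 675.2, 717.2 and 597.7 normalized counts in WT and 710.6, 775.2, 782.5, 844.3 and 929.2 in KI. WT library 4 lay above KI library 1, so that the genotypes overlapped by this pair. The mean was 643 ± 54.2 in WT and 808 ± 82.5 in KI (SD, n = 5 each), and the log2 fold change 0.33 (SE 0.10, limma, adjusted p = 0.0235). The adjusted p was 0.0515 without KI library 5, 0.0631 without WT library 1, 0.0528 without WT library 5 and 0.0976 in libraries 4 and 5 alone.

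Prmt9, which methylates the splicing factor SF3B2, is at chr8:77549397-77581338. Its normalized counts were 105.7, 96.0, 100.2, 95.3 and 81.9 in WT and 118.6, 127.8, 126.6, 116.4 and 127.0 in KI, without overlap. The mean was 95.8 ± 8.81 in WT and 123.3 ± 5.36 in KI (SD, n = 5 each), and the log2 fold change 0.36 (SE 0.12, limma, adjusted p = 0.0382). The call held in 13 of 23 alternatives. It was lost when any 1 library other than WT library 1 or KI library 4 was left out (adjusted p between 0.0538 and 0.0864, limma), and in each library set alone.

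Prmt1, the main source of asymmetric dimethylarginine, passed by adjusted p in libraries 1 to 3 alone. Whether its change differs between the library sets was not tested. In libraries 1 to 3 the normalized counts were 401.7, 366.5 and 436.0 in WT and 562.8, 524.9 and 543.6 in KI, apart by a log2 fold change of 0.44 (limma, adjusted p = 0.00228). In libraries 4 and 5 they were 439.3 and 376.5 in WT and 363.5 and 452.7 in KI, with a log2 fold change of −0.0037 (adjusted p = 0.994). Over all libraries the log2 fold change was 0.26 (SE 0.12, limma, adjusted p = 0.143). The other arginine methyltransferases, Prmt2, Prmt3, Prmt6 and Prmt7, had log2 fold changes between −0.10 and 0.21 and did not pass.

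None of the 7 genes grouped by family with the H3K4 methyltransferases, Setd1a, Setd1b and Kmt2a to Kmt2e, passed the test (limma, 0 also at an unadjusted p under 0.05). The activity of each was not examined. Their log2 fold changes were all above 0, from 0.02 for Setd1b to 0.25 for Kmt2d. Kmt2b, which spermatogonia need to set up H3K4 methylation, had 1022, 941.1, 1022, 1320 and 1401 normalized counts in WT and 1049, 1106, 1082, 1371 and 1368 in KI. The genotypes coincided and the library sets were apart: the log2 fold change was 0.07 (SE 0.13, limma, adjusted p = 0.725). Setd1a had 738.5, 581.6, 666.7, 775.3 and 943.1 in WT and 788.5, 743.9, 808.2, 954.9 and 1014 in KI. Each KI library lay above the WT library of the same number. Its log2 fold change of 0.23 had an adjusted p of 0.234 (limma) and of 0.0338 with the library number as a block.

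The 6 H3K4 demethylases, Kdm1a, Kdm1b and Kdm5a to Kdm5d, were likewise all above 0, and none passed (limma; 1 at an unadjusted p under 0.05, Kdm5c). Kdm1a (LSD1), a flavin-dependent enzyme that spermatogonia need, had 2355, 2544, 2174, 2585 and 2448 normalized counts in WT and 2270, 2355, 2426, 2968 and 2885 in KI (log2 0.09, SE 0.10, limma, adjusted p = 0.587). KI libraries 4 and 5 were above every other library and KI libraries 1 to 3 within the range of WT. Kdm5c, on the X chromosome, had 286.6, 211.6, 256.1, 306.9 and 336.9 in WT and 324.8, 276.4, 304.8, 424.1 and 553.9 in KI. It too was higher in KI at every library number. The log2 fold change was 0.40 (SE 0.18, limma), with an adjusted p of 0.127. That adjusted p was 0.00695 with the block and 0.0115 with a term for the library sets (limma). Its partner on the Y chromosome, Kdm5d, had only 28.2, 23.1, 29.0, 26.1 and 26.4 in WT and 35.4, 31.3, 32.95, 19.2 and 30.4 in KI. The genotypes overlapped (log2 0.14, SE 0.21, limma, adjusted p = 0.687).

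Of the 10 demethylases of H3K9 and H3K36, 7 lay above 0 and 3 below 0 (all 10 above 0 with library totals), and none passed (limma; 0 also at an unadjusted p under 0.05). The 95% interval of each lay within a fold change of 1.5 either way. Kdm4d, an H3K9 demethylase found mainly in the testis, had 2456, 2777, 2283, 2668 and 2631 normalized counts in WT and 2500, 2659, 2521, 3137 and 3063 in KI (log2 0.11, SE 0.09, 95% interval −0.09 to 0.31, limma, adjusted p = 0.448). Kdm3a, which is known to act at the genes of transition protein 1 and protamine 1 in spermatids, had 3652, 3645, 3064, 3635 and 3396 in WT and 3537, 3446, 3183, 4091 and 4517 in KI. Its log2 fold change was 0.10 (SE 0.10, 95% interval −0.12 to 0.32, limma, adjusted p = 0.542), while all 12 elongating spermatid markers, those genes among them, fell. Kdm2b, which brings a Polycomb complex to CpG islands, had a log2 fold change of 0.25 with an adjusted p of 0.189 (limma). That adjusted p was 0.0263 with the block and 0.0214 with a term for the library sets (limma). The lowest was Kdm7a at −0.19 (adjusted p = 0.178, limma), and Kdm2a, Kdm3b, Kdm4a, Kdm4b, Kdm4c and Kdm8 lay between −0.03 and 0.19. Of these, Kdm4b was at 0.32 in libraries 1 to 3 alone (adjusted p = 0.0486, limma). In libraries 4 and 5 alone Kdm4b was at −0.02 (adjusted p = 0.974, limma).

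The 3 H4K20 methyltransferases did not pass (limma; 1 at an unadjusted p under 0.05, Kmt5c). Kmt5c, a writer of H4K20 trimethylation, had 142.3, 146.8, 142.5, 200.6 and 194.8 normalized counts in WT and 216.8, 177.3, 215.2, 215.4 and 190.4 in KI. WT libraries 1 to 3 lay below every KI library and WT libraries 4 and 5 within the range of KI. The log2 fold change was 0.31 (SE 0.13, limma, adjusted p = 0.112), with 0.49 in libraries 1 to 3 (adjusted p = 0.00954) and 0.03 in libraries 4 and 5 (adjusted p = 0.933). Kmt5a was at 0.18 and Kmt5b at 0.01. Of the 6 other SET domain genes none passed either (limma; 0 at an unadjusted p under 0.05). Setd2, the writer of H3K36 trimethylation, had 1352, 1204, 1013, 1072 and 1192 in WT and 1165, 1025, 1072, 1055 and 1339 in KI. The genotypes spanned the same range (log2 −0.04, SE 0.10, 95% interval −0.26 to 0.18, limma, adjusted p = 0.808). Setd3, a histidine methyltransferase of actin, was at −0.09, Setd5 at 0.01 and Setd6 at −0.02. Setd7 at 0.36 and Setd4 at 0.26 were higher, but their intervals reached −0.09 and −0.16.

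Levels of different genes were compared per kilobase of exon, as normalized counts. Exon length was the union over all GENCODE transcripts, while reads were counted on RefSeq genes, so that a level also depends on the annotation. They spanned a wide range among the 50 genes. In WT Kdm4d stood first with 896 normalized counts per kilobase, above 92.0% of all genes. Prdm2, with 488, Prmt7, with 479, Kdm1a, with 467, and Kdm3a, with 423, followed, and their ranges over the WT libraries overlapped. Kdm5b came next with 309, and its highest WT library (333) stayed below the lowest of Kdm3a (373). At the low end were Setd7 with 5.42 and Kdm5d with 1.75, where only 1.18% of all genes were lower. Kdm5d was given 15164 exon bases, and its GENCODE gene ends at 956786, beyond the 943811 of the gene counted, which lowers its level per kilobase. Enzymes with the same substrate could thus be far apart: Kdm4d against Kdm4c, or Kdm5b against its paralog Kdm5d. The median was 50.8 in WT and 56.1 in KI, against 63.1 and 63.4 over all genes, and 21 of the 50 lay above the median of all genes in WT. The order changed little in KI, where Kdm6b moved from rank 25 to rank 18 and Prdm16 from 45 to 47. The 50 genes together took 37156 to 43822 normalized counts in a WT library and 38740 to 52318 in a KI library, ranges that overlapped. As a share of the library these were 0.231% to 0.284% and 0.294% to 0.374%. The total of normalized counts was itself lower in KI, without overlap (exact two-sided permutation test over 252 arrangements, p = 0.00794, the smallest it can give).

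**Figure D3:**
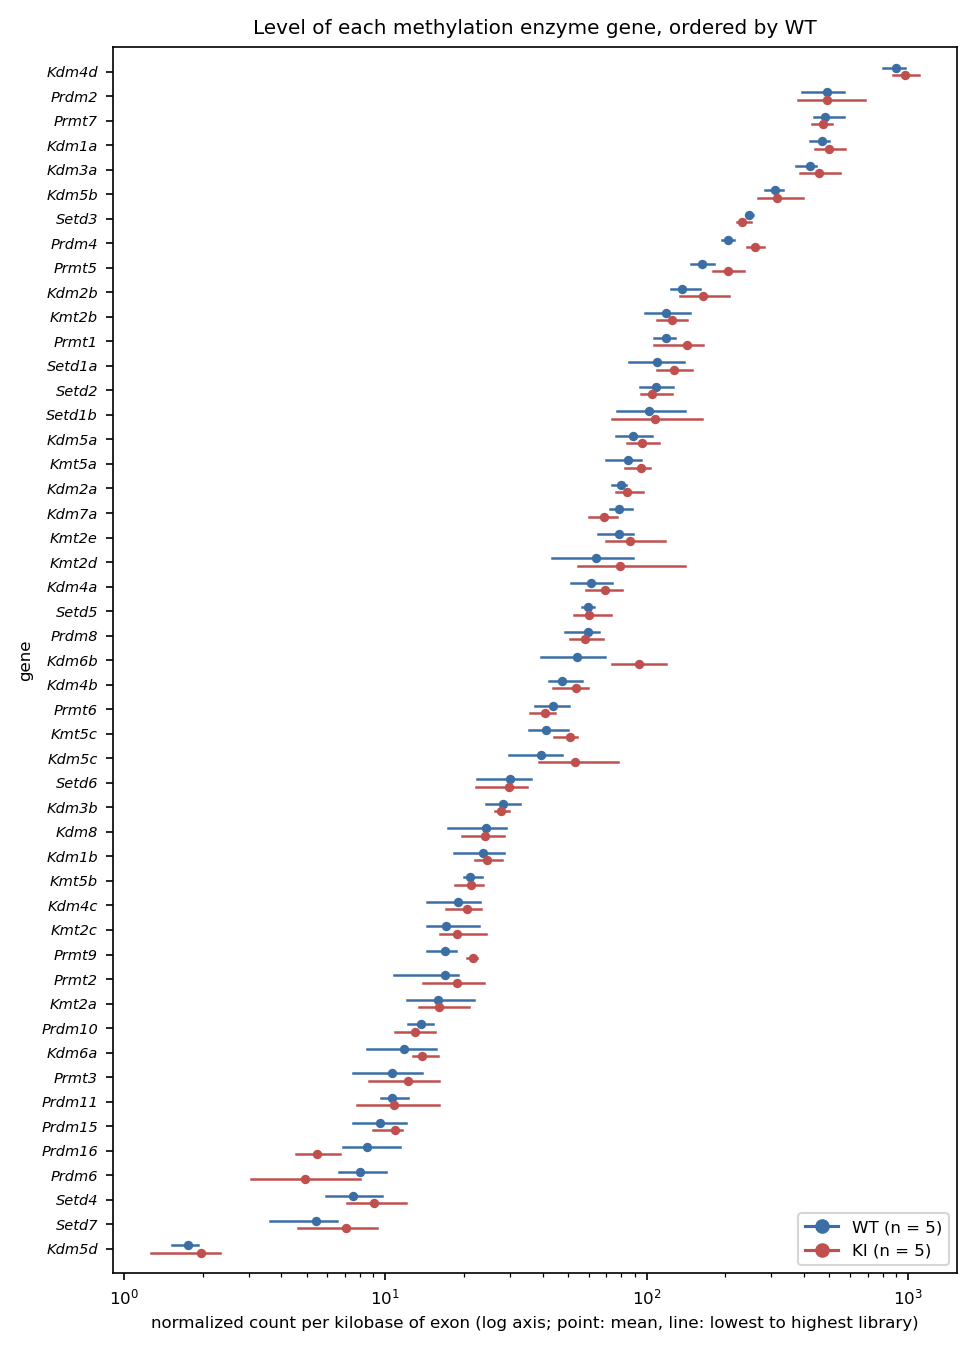
Normalized counts per kilobase of exon for 49 of the 50 genes on a log axis, ordered by the WT mean, in WT (blue) and KI (red). Points are means and lines run from the lowest to the highest of 5 libraries; levels span from 896 for Kdm4d to 1.75 for Kdm5d in WT, and for most genes the lines of the genotypes overlap.

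Within a genotype, the spread between libraries had a pattern of its own. The coefficient of variation had a median of 13.1% in WT, and of 14.2% in KI. Setd3 had the lowest in WT (2.68%) and Prmt9 in KI (4.35%), and Kmt2d had 31.2% in WT and 46.7% in KI. In KI, 25 of the 50 genes were higher in libraries 4 and 5 than in libraries 1 to 3 without overlap, when 24.3% of all genes were, and 8 were lower, against 24.7%. In WT, 12 were higher, against 17.1% of all genes, and 6 were lower, against 20.9%. In both genotypes 10 genes were higher (8.08% of all genes): Kdm2b, Kdm3b, Kdm4a, Kdm5c, Kdm6b, Kmt2b, Kmt2d, Prdm2, Setd1a and Setd1b. Kdm4c was lower in both.

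Of the 50 genes, Kmt2d differed most between the library sets in both genotypes. This methyltransferase, which marks enhancers, had 1095, 1029, 866.0, 1634 and 1771 normalized counts in WT and 1115, 1125, 1087, 1779 and 2792 in KI. Libraries 4 and 5 were 1.71-fold higher in WT and 2.01-fold higher in KI, while the genotypes overlapped. Setd1b had 1060, 1169, 928.8, 1326 and 1695 in WT and 891.1, 979.5, 948.2, 1684 and 1972 in KI, 1.43-fold and 1.94-fold higher in libraries 4 and 5. Kmt2d and Setd1b have 19931 and 12068 exon bases, as the union over all transcripts. Kmt2c, with 20291, was 1.21-fold higher in libraries 4 and 5 in WT and 1.23-fold in KI. Across the 50 genes, the difference between the library sets correlated with exon length in KI (Spearman's rho 0.48, n = 50) and hardly in WT (rho 0.09). These points share their libraries and the values are a description. Whether RNA quality, cell makeup or another difference goes with the library sets was not tested.

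**Figure D4:**
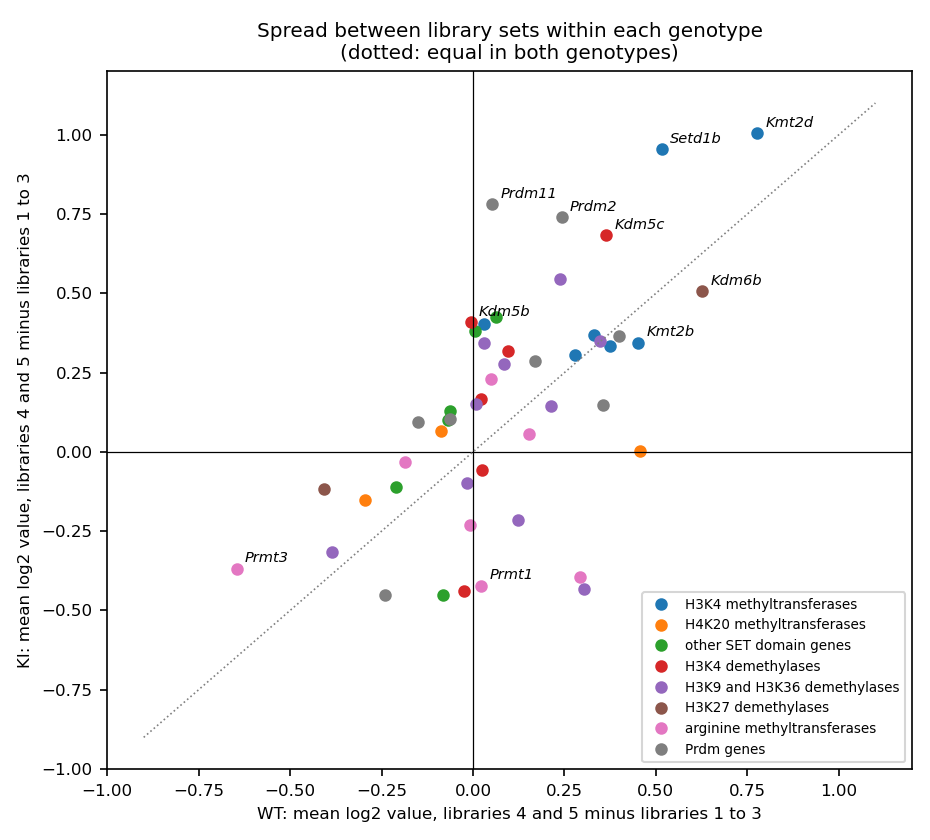
Difference in mean log2 value between libraries 4 and 5 and libraries 1 to 3, in WT (x axis) and in KI (y axis), 1 point for each of 49 genes, coloured by role. Kmt2d at 0.78 and 1.01 and Setd1b at 0.52 and 0.96 lie furthest to the upper right.

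Other genes of histone and arginine methylation, not chosen by the naming rule, changed in few cases too. Of 101 tested of the 106 in 8 lists, 4 were up-regulated and 6 down-regulated, 9.90% against 14.4% of all genes. By adjusted p alone 7 were higher and 9 lower, 15.8% against 22.9% of all genes. In 2 short lists the share differentially expressed was above that of all genes, the other lysine demethylases (22.2%) and the methyl donor cycle (18.2%). Over all 101 genes tested of the 8 lists, the median log2 fold change was 0.06. Of the other lysine methyltransferases, 1 of 19 rose and 1 fell. Suv39h2, the H3K9 methyltransferase found mainly in the testis, fell from 828 ± 93.1 to 416 ± 62.8 normalized counts (SD, n = 5 each; log2 −0.996, SE 0.12, limma, adjusted p = 2.67e-05). The low-level Setmar rose from 9.22 ± 4.08 to 19.7 ± 4.16 (log2 1.15, SE 0.37, limma, adjusted p = 0.0341). The call of Setmar was lost without KI library 1, 2, 3 or 4 (adjusted p between 0.0532 and 0.0869, limma) and in libraries 4 and 5 alone (adjusted p = 0.478). Of the other lysine demethylases, 1 of 9 rose and 1 fell. Phf8, an X-linked demethylase of H3K9 and H4K20, rose from 488 ± 46.7 to 804 ± 50.3 (log2 0.72, SE 0.09, limma, adjusted p = 4.82e-05). Jmjd6, a JmjC-domain hydroxylase also described as an arginine demethylase, fell from 1344 ± 208 to 823 ± 56.6 (log2 −0.70, SE 0.11, limma, adjusted p = 2.13e-04).

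Cofactors and readers gave the same picture of single genes. Of the 13 subunits shared by the H3K4 methyltransferase complexes (COMPASS) only Dpy30, needed for full H3K4 methylation, was differentially expressed, and it fell from 1279 ± 193 to 710 ± 143 normalized counts (SD, n = 5 each; log2 −0.86, limma, adjusted p = 5.21e-04). Of the 8 tested subunits of PRC2, the writer of H3K27 methylation, and of the 10 partners of Kdm1a in the LSD1-CoREST complex, none was. By adjusted p alone, 1 of the PRC2 subunits was higher and 1 of the Kdm1a partners lower. Of 9 other genes of arginine methylation, Btg1, a coactivator that binds PRMT1, fell from 2690 ± 62.4 to 1707 ± 116 (log2 −0.66, limma, adjusted p = 2.28e-05). Of 22 readers of methyl-lysine, the Polycomb protein gene Cbx6 rose from 113 ± 4.19 to 190 ± 33.5 (log2 0.74, limma, adjusted p = 7.02e-04), and Cdyl, a chromodomain corepressor, fell from 3418 ± 466 to 2165 ± 219 (log2 −0.65, limma, adjusted p = 4.53e-04). In the methyl donor cycle, 1 of 11 rose and 1 fell. Bhmt, which remakes methionine from betaine, rose from 803 ± 238 to 1379 ± 296 (log2 0.80, limma, adjusted p = 0.00507), with overlap between the genotypes, and Nnmt, which uses up S-adenosylmethionine to methylate nicotinamide, fell from 25.6 ± 5.68 to 4.89 ± 3.08 (log2 −2.34, limma, adjusted p = 5.58e-04). In libraries 4 and 5 alone, Jmjd6 (adjusted p = 0.0629), Cbx6 (0.0706) and Cdyl (0.0809) did not pass (limma). With library totals the falls of Jmjd6, Btg1 and Cdyl were under 1.5-fold. The elongating spermatid markers fell in the same libraries, and their part in these falls was not tested.

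**Figure D5:**
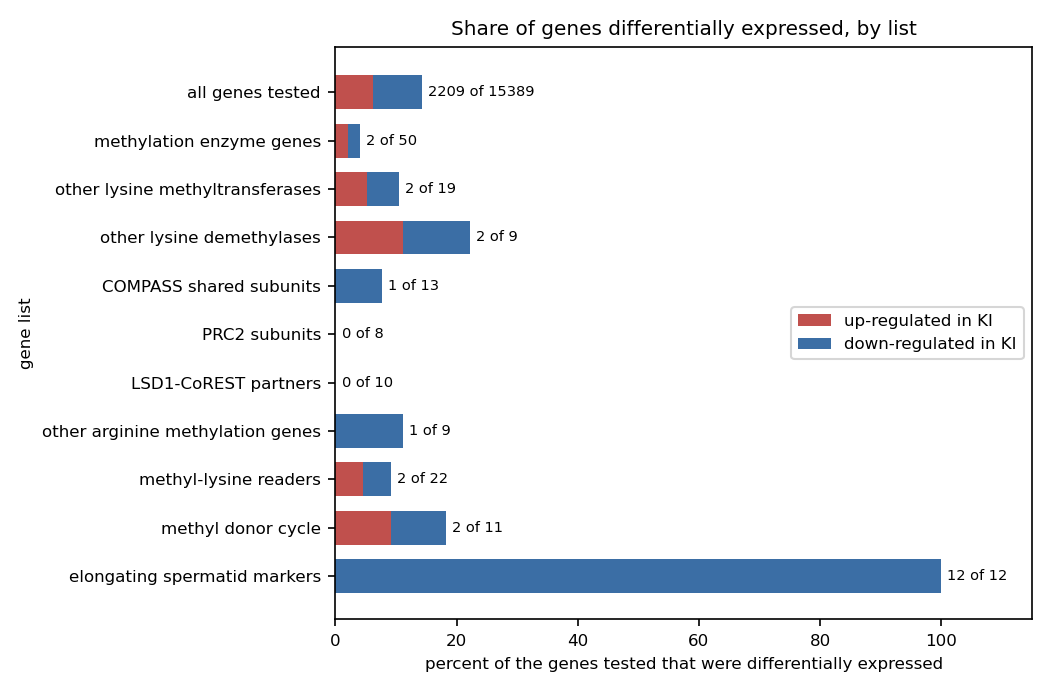
Percent of the genes tested that were differentially expressed in KI, split into up-regulated (red) and down-regulated (blue), for all genes, the 50 methylation enzyme genes, 8 lists of other methylation genes and the elongating spermatid markers, with counts beside the bars. The 50 genes reach 4% and all genes 14.4%, and all 12 elongating spermatid markers were down-regulated.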

How the data were processed

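RNA of germ cells was sequenced as 1 library per mouse, and nothing in the sources ties libraries to litters or days. The authors trimmed the reads, aligned them with STAR to the mm10 genome, used the Partek E/M model to obtain counts for RefSeq_v91 genes, and deposited a signal per gene and library, the count divided by the DESeq2 size factor; tool versions are not given in the sources used here. Dividing by the value of 1 read gave whole reads (to within 0.1) wherever there were fewer than 5000 reads (100% of such values). The value of 1 read differed from the inverse of DESeq2's size factor by at most 0.000486 percent. In a library where a gene has 0 reads, up to 3 reads remain possible, for counting error only. The members and gene lists were chosen with earlier results of these data known. The Prdm gene that the rule left out is not reported here, and 1 further gene is in the counts over the 50 genes but is not reported singly or drawn.

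limma (version 3.58.1, in R 4.3.3) was fitted with a variance trend to log2(value + 1) of the genes kept by filterByExpr (edgeR version 4.0.16, groups by genotype, recovered reads), with Benjamini-Hochberg adjustment of the p-values over 15389 genes. On the recovered reads, edgeR's quasi-likelihood test called 950 genes up-regulated and 1293 down-regulated, DESeq2 (version 1.42.0) 1018 and 1291, and limma on the normalized values 944 and 1265. Other alternatives were pseudocounts of 0.1 and 10, no filter, a mean of at least 50 normalized counts, scaling to library totals, upper quartile or TMM factors, an adjusted p under 0.01, no fold threshold, a term for the library sets, each library set alone, the library number as a block, and leaving out each library in turn. Fits were tested on simulated data. Pairing by library number was checked from the deviations from the genotype means. Same-numbered WT and KI libraries correlated with r of 0.306, 0.105, 0.280, 0.216 and 0.462. The mean of other pairs of the same library set was 0.134, and the r of 0.105 lay below it. For 4 WT libraries the highest correlation was with their own number. These values do not settle whether the numbers pair the libraries. Values with the replicate block are given as an alternative where they change a call. No library was a copy of another (chi-square per degree of freedom of 2.67 to 46.4 between libraries of a genotype).

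Genes named with values are those that passed by adjusted p, Kdm1a, Kdm3a, Kdm4d, Kdm5d, Kdm6a, Kmt2b, Setd2 and Prmt5 for their known roles in germ cells, Ddx25, and the differentially expressed genes of the other lists. Prdm1 and Prdm14 were on that list too and are not analysed here. Prdm6, Prmt1, Setd1a, Kdm5c, Kdm2b, Kmt5c, Kmt2d, Setd1b, Kdm4b, Prdm2 and Kmt2c were added after their values were seen. Positions are those of the file (mm10), and exon lengths and overlaps taken from GENCODE vM21, which uses that build. On the opposite strand, 22 of the 50 genes are overlapped by another gene, and no source says that reads were counted by strand.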

Additional observations from a re-analysis of the deposited data

Results flagged for a closer look

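Of 26 groups of 5 libraries (13 named genes in 2 genotypes), 1 held a library far from the others, where chance gives about 1 in 20. Kdm6a was high in KI library 1, with 134 normalized counts where the nearest KI library had 112, a gap of 0.795 of the range of the group. Without KI library 1 the log2 fold change of Kdm6a was 0.20 (limma, adjusted p = 0.471).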

How the results depend on the processing

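The 5 genes that passed by adjusted p kept their direction in every alternative run, while the fold change of 26 others changed sign in at least 1. DESeq2, edgeR, TMM scaling, no filter, a mean of at least 50 normalized counts and a pseudocount of 0.1 left the counts of calls among the 50 genes and the other methylation genes within 1.5 times. Over all genes, a mean of at least 50 left 549 up-regulated, more than 1.5 times fewer than 944, of the 12334 tested. With library totals, 3 of the 50 genes were up-regulated and 0 down-regulated, 21 were higher and 0 lower by adjusted p, 8 other methylation genes were up-regulated and 3 down-regulated, and the median log2 fold change was 0.34. Over all genes, library totals gave 2144 up-regulated and 789 down-regulated, against 944 and 1265, and upper-quartile scaling 1296 and 1025. With upper-quartile scaling the median was 0.20, and 0 of the 50 were down-regulated, as also with a pseudocount of 10 (0). With no fold threshold 4 of the 50 and 7 of the other genes were called up-regulated. With an adjusted p under 0.01, 2 were higher, 0 lower and 0 down-regulated. With the replicate block 7 were higher, Kdm5c, Kdm2b and Setd1a being added, and the block changed no other call among the 50. With the library set as a term 6 were higher, Kdm5c and Kdm2b being added. In that fit 2 were down-regulated and 2 lower, Prdm6 being added. In libraries 1 to 3 alone 6 were higher, Prmt9 being lost and Kdm4b, Kmt5c and Prmt1 added, and 2 were lower, Prdm2 being added. In libraries 4 and 5 alone 1 was higher and 0 lower, 0 were down-regulated, and 2 other genes were up-regulated. These fits used fewer libraries. Leaving out 1 library at a time gave 0 to 2 down-regulated (0 without KI library 1, KI library 3 or WT library 5, 2 without KI library 2), 2 to 5 higher by adjusted p (2 without KI library 5 or WT library 5, 5 without KI library 4) and 0 to 2 lower (0 without WT library 5, 2 without KI library 2). Other causes were not tested. Depth limits low genes such as Kdm5d and Prdm6, whose mean was under 31 normalized counts in both genotypes.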
